A study of Mus musculus with 15 samples.

Results

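The 7 genes of Schwann cells and nerve support, Pmp22, Mbp, Prx, Sox10, Ngfr, Ncam1 and S100b, were followed in RNA sequencing of mouse inguinal white adipose tissue, a subcutaneous fat pad. They were taken by symbol from a list, not by their values, and are 7 of the 24015 genes in the count table. All 7 passed the filter on low counts that left 15288 genes for testing. Every mouse was of the C57BL/6 strain, was kept at thermoneutrality for 2 weeks and was then given vehicle or CL by intraperitoneal injection over 5 days. Young_Ctrl (2 months old, vehicle), Young_CL (2 months old, CL) and Old_CL (12 months old, CL) had n = 4 libraries each. Old_Ctrl (12 months old, vehicle) had n = 3, since a library numbered 2 was not analysed here. In the labels CL stands for cardiolipin, although the same letters are commonly used for an agonist of β-adrenergic receptors, so the compound is not settled and is called CL throughout. No label ties a library to its own animal. The p-values therefore rest on the spread among these samples alone, which may be technical.

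Schwann cells are the glia of peripheral nerves. One kind wraps single large axons in myelin, a stack of membrane held together by proteins such as Pmp22 and Mbp, and another kind carries bundles of thin axons without myelin. Fat pads are supplied mainly by thin sympathetic fibres, with some sensory fibres. S100b is a calcium-binding protein widely used as a glial marker, but it is also made and secreted by adipocytes. In brown fat it is known as a factor that promotes the growth of sympathetic axons.

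Total counts ran from 6115542 to 51577001 per library. Levels are given as CPM, gene counts scaled to a common library size after TMM, a correction for composition. The 12 adipocyte markers summed to between 16100 and 66600 CPM in every library, so the defining genes of the labelled tissue were abundant. Other tissue was present too: 14 skeletal muscle markers summed to 52.3 to 382 CPM in Young_Ctrl, 106 to 5010 in Young_CL, 77.8 to 7820 in Old_Ctrl and 242 to 3720 in Old_CL. A set of 5 libraries was rich in muscle transcripts (Young_CL 1, 2 and 3, Old_Ctrl 3 and Old_CL 3). Old_CL 1, 2 and 4 stood closer to each other (robust SD of log2 ratios at most 0.0933) than any other pair within a group (at least 0.116), but differed by more than sampling noise and were kept as 3 libraries. In bulk tissue, fewer cells of a type and less RNA per cell cannot be told apart.

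Upstream sequence was available for 4 of the 7 members in the RefSeq promoter table (GRCm38.p6), and Pmp22 has 4 start sites there, which the gene counts do not separate. The 250 bases before the start of the other members are printed because these carry the contrasts described here: S100b rose with CL, Prx fell with CL in young mice, and Ngfr was lower with age. Capitals mark CCAAT boxes (CCAAT on either strand) and GC boxes (GGGCGG on either strand).
S100b, chr10:76253586-76253835, plus strand: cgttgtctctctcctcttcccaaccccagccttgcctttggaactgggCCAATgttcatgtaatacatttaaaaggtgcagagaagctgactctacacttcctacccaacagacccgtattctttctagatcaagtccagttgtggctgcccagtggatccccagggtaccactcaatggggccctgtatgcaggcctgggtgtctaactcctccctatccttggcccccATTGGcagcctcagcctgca
Prx, chr7:27499074-27499323, plus strand: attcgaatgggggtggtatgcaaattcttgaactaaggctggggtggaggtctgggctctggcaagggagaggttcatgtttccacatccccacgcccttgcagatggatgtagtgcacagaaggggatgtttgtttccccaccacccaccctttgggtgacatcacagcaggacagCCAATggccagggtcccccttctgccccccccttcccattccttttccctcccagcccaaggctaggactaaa
Ngfr, chr11:95587699-95587948, minus strand: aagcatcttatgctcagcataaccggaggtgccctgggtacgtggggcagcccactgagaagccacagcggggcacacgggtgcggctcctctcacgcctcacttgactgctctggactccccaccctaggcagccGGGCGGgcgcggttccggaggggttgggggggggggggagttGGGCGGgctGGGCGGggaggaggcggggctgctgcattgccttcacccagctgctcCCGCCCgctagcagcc
The S100b window held 2 CCAAT boxes, the Prx window 1 and the Ngfr window none, while the Ngfr window held 4 GC boxes and the others none. Of 32851 promoters of the same length in the table, 33.8% held CCAAT and 32.7% held GGGCGG, so these matches are common ones. The letters TATAAA (12.4% of promoters), the SOX cores ACAAAG (16.5%) and ACAATG (10.7%), the cyclic AMP response elements TGACGTCA (1.55%) and TGACG (17.8%), the nuclear receptor letters AGGTCA (14.0%) and TNAAGGTCA (1.14%), and the EGR sites GCGGGGGCG (2.57%) and GCGTGGGCG (0.536%) were in none of the 3 windows on either strand. The CCAAT, GC and TATA boxes were added after the other motifs had given no match, so the choice of what is in capitals was made with these sequences seen. TGACG lies within TGACGTCA, and AGGTCA within TNAAGGTCA.

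S100b was the member that moved most. It rose 5.94-fold with CL in young mice and 1.59-fold in aged mice, where the call was lost with a B cell covariate, and the difference between those responses passed its own test. Mbp fell with CL at both ages, and Prx and Pmp22 changed with CL in young mice in opposite directions. With age under vehicle, Pmp22, Mbp, Prx and Ngfr were lower. Each of these 4 calls was lost on leaving out at least 1 library. None held with the 2 vehicle groups fitted by themselves or with the B cell covariate. Sox10, the transcription factor that sets Schwann cell identity, and Ncam1, an adhesion molecule of non-myelinating Schwann cells, passed the test in no comparison.

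**Figure D1:**
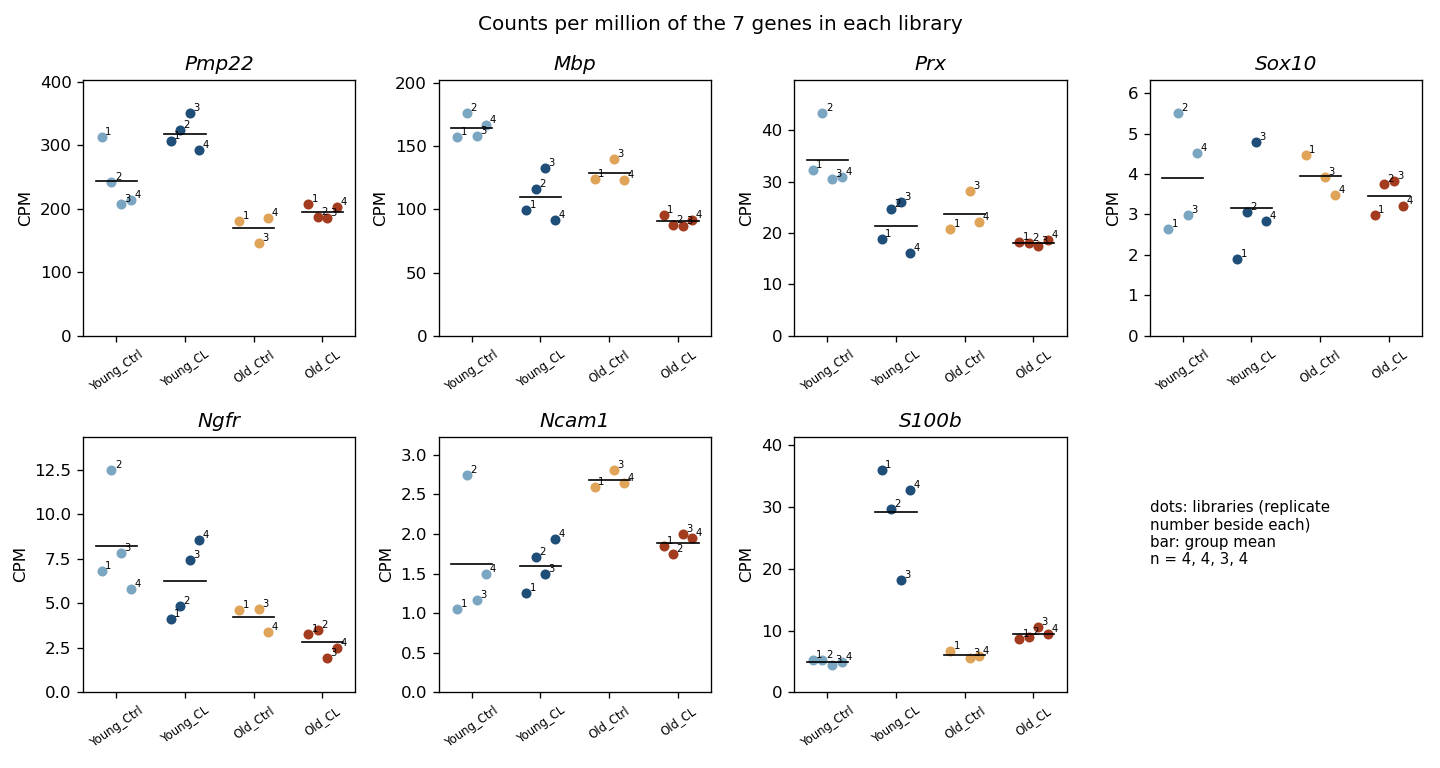
Level of each of the 7 genes in CPM (vertical axes, linear and from 0) in each of the 15 libraries, by group on the horizontal axis; dots are libraries with their replicate number and bars are group means. S100b stands at 18.2 to 36 CPM in Young_CL and at 10.5 CPM or less in every other library, while the Sox10 groups overlap throughout.

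Pmp22, a small protein of compact myelin that fibroblasts and other cells make as well, had the highest level of the 7 genes. Young_Ctrl libraries 1 to 4 had 313, 242, 207 and 214 CPM and Young_CL libraries 306, 324, 350 and 293 CPM. Old_Ctrl libraries 1, 3 and 4 had 180, 146 and 185 CPM and Old_CL libraries 207, 187, 185 and 202 CPM. The vehicle and CL groups overlapped in young mice, because Young_Ctrl 1 stood far above the rest of its group. Under either treatment every aged library lay below every young one. With CL, Pmp22 rose in young mice by 0.39 on the log2 scale (SE 0.13, adjusted p = 0.023 in edgeR's quasi-likelihood test over all tested genes). That call was lost when Young_Ctrl 3 (log2 change 0.31, adjusted p = 0.078), Young_Ctrl 4 (0.33, 0.073), Young_CL 2 (0.38, 0.052) or Young_CL 3 (0.31, 0.065) was left out, without the muscle-rich libraries (0.26, 0.37), with the mean level of B cell markers as a covariate (0.18, 0.56), and narrowly with upper-quartile factors (0.30, 0.05), the muscle score (0.39, 0.05) and the 2 young groups by themselves (0.38, 0.052). In aged mice its log2 change with CL was 0.20 (SE 0.14, adjusted p = 0.26).

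Mbp, the protein that binds the inner faces of the myelin membrane, was next in CPM. The gene also makes golli transcripts, known in lymphoid cells, and the gene counts sum over all of its transcripts. Young_Ctrl libraries had 157, 176, 158 and 167 CPM, and Young_CL libraries 99.5, 116, 133 and 91.5 CPM. Old_Ctrl libraries had 124, 140 and 123 CPM, and Old_CL libraries 95.4, 87.8, 87.2 and 91.8 CPM. Every CL library lay below every vehicle library of the same age. Mbp fell with CL by 0.58 on the log2 scale in young mice (SE 0.10, adjusted p = 0.00046) and by 0.51 in aged mice (SE 0.11, adjusted p = 0.002). The responses at the 2 ages were not shown to differ (difference 0.07, 95% interval -0.26 to 0.40, adjusted p in edgeR over 0.05).

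Prx, periaxin, links the myelin sheath of peripheral nerve to the cell skeleton, and lung endothelium makes it too. Young_Ctrl libraries had 32.2, 43.3, 30.5 and 30.9 CPM, and Young_CL libraries 18.8, 24.6, 26 and 16.2 CPM. Old_Ctrl libraries had 20.7, 28.1 and 22.1 CPM, and Old_CL libraries 18.3, 18.1, 17.5 and 18.7 CPM. Again no CL library reached a vehicle library of its age, and the Old_CL libraries were nearly level with each other. Prx fell by 0.69 on the log2 scale with CL in young mice (SE 0.15, adjusted p = 0.0022). In aged mice the log2 change was -0.39 (SE 0.16, adjusted p = 0.06), and it passed the threshold with RLE factors (adjusted p = 0.046), upper-quartile factors (0.029), DESeq2 (0.039), a replicate block (0.031), a muscle score covariate (0.039) and a fit of the 2 aged groups by themselves (0.012). It passed in none of the 7 fits that left out 1 aged library (log2 change -0.47 to -0.24, edgeR adjusted p = 0.052 to 0.29).

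Of 17 other genes of myelin, 8 fell and 1 rose with CL in young mice, with a median log2 change of -0.66 beside -0.07 over all tested genes. Cnp, an enzyme of the cytoplasmic channels of myelin, fell by 0.59 (SE 0.12), Mal, a raft protein, fell by 0.78 (SE 0.16), and Ugt8a, which makes the myelin lipid galactosylceramide, fell by 1.23 (SE 0.27). Pllp, plasmolipin, was the gene that rose, by 0.69 (SE 0.14, adjusted p = 0.0011). In aged mice 2 fell and 2 rose, and the median was -0.23 beside -0.01 over all tested genes. Cnp fell there by 0.78 (SE 0.13) and Pllp rose by 1.30 (SE 0.15). For none of the 17 did the CL response differ between the ages at an adjusted p under 0.05.

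**Figure D2:**
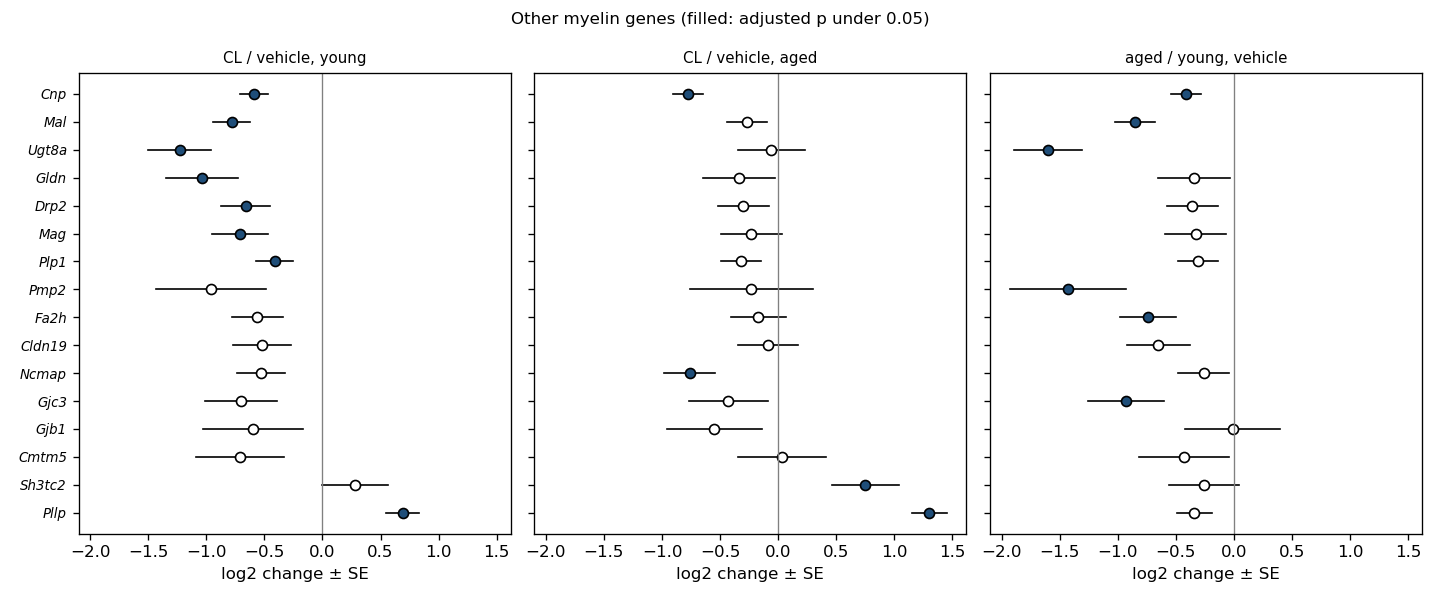
Log2 change (horizontal axes, bars are SE from edgeR) of the other myelin genes reported here with CL in young and in aged mice and with age under vehicle; filled dots have an adjusted p under 0.05. With CL, Pllp lies at 0.69 in young and 1.30 in aged mice, and Ugt8a lies at -1.23 with CL in young mice and at -1.60 with age under vehicle.

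Markers of other cell types moved beside these genes. All 10 T cell markers fell with CL at both ages, and their summed level was 788 to 1460 CPM in Young_Ctrl, 595 to 684 in Young_CL, 590 to 677 in Old_Ctrl and 194 to 320 in Old_CL. Cd3e fell by 0.93 in young and by 1.16 in aged mice on the log2 scale. Of 12 adipocyte markers, 8 rose with CL at each age, with summed levels of 16100 to 39300 CPM in Young_Ctrl, 35900 to 41300 in Young_CL, 30800 to 45600 in Old_Ctrl and 55600 to 66600 in Old_CL. All 12 B cell markers fell with CL in young mice and 9 in aged mice (1580 to 2200 CPM in Young_Ctrl, 909 to 1330 in Young_CL, 532 to 1110 in Old_Ctrl and 481 to 634 in Old_CL). Of 4 tested lymph node stroma markers 3 fell in young mice (105 to 120 CPM in Young_Ctrl, 75.3 to 99.7 in Young_CL) and 4 in aged mice (110 to 117 in Old_Ctrl, 65.4 to 86.6 in Old_CL). Of 3 tested perineurial markers, genes of the sheath around nerve bundles, 2 fell in young mice (50.1 to 62.1 and 32.6 to 41.7 CPM) and 1 in aged mice (46.7 to 53.8 and 40 to 48.2 CPM). Of 10 endothelial markers 1 rose and none fell with CL at each age. Their median log2 change was 0.12 in young and 0.13 in aged mice. No listed marker was at 0 in all libraries, but some were close to it. The node stroma genes Ccl19 and Ccl21a fell below the filter, with at most 5 and 2 counts in a library. With the mean level of the B cell markers as a covariate, Mbp kept its calls (adjusted p = 0.03 in young and 0.017 in aged mice), and those of Prx (-0.70, adjusted p = 0.073), Cnp (-0.25, 0.25), Mal (-0.71, 0.073) and Ugt8a (-0.97, 0.17) in young mice were lost. That covariate itself was lower with CL, at a mean log2 CPM of 7.07 in Young_Ctrl and 6.26 in Young_CL. In aged mice it was 5.89 in Old_Ctrl and 5.28 in Old_CL. A call kept or lost with it therefore does not tell the part of B cells from that of CL. The part of the other cell types in the lower Mbp and Prx was not tested.

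Sox10 had few counts, 20 to 219 per library. Young_Ctrl libraries had 2.63, 5.5, 2.98 and 4.51 CPM, and Young_CL libraries 1.9, 3.07, 4.8 and 2.83 CPM. Old_Ctrl libraries had 4.47, 3.92 and 3.47 CPM, and Old_CL libraries 2.99, 3.76, 3.82 and 3.22 CPM. All 4 groups overlapped. The log2 change with CL was -0.40 in young mice (95% interval -0.96 to 0.17, adjusted p = 0.24) and -0.17 in aged mice (-0.75 to 0.41, adjusted p = 0.63). With age it was -0.01 under vehicle (-0.60 to 0.58, adjusted p = 0.98) and 0.21 under CL (-0.35 to 0.77, adjusted p = 0.55). These intervals are wide enough to hold changes as large as those of Mbp and Prx. The 6 melanocyte markers summed to 14.3 to 22.6 CPM in Young_Ctrl and 11.1 to 13.5 in Young_CL. In aged mice they summed to 12 to 14.3 CPM in Old_Ctrl and 8.55 to 10.5 in Old_CL. Which cells carried Sox10 was not tested, so its level is not read as a measure of Schwann cells.

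Of the 7 other regulators of the Schwann lineage that passed the filter, 2 fell with CL in young mice and 3 in aged mice, and none rose. Over all tested genes 43.9% were called with CL in young mice (22.1% lower) and 45.2% in aged mice (22.2% lower). These shares also stand beside the counts for the other nerve gene lists with CL. Egr2, the transcription factor that switches on myelin genes and that activated lymphocytes also use, fell by 0.59 (SE 0.18, adjusted p = 0.016) in young and by 0.67 (SE 0.19, adjusted p = 0.01) in aged mice. The aged call was lost without Old_Ctrl 4 (-0.57, adjusted p = 0.051). Nab2, a cofactor of the EGR proteins, fell by 0.70 (SE 0.11) and by 0.62 (SE 0.12). Pou3f2, Sox2 and Tfap2a fell below the filter.

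Ngfr, the p75 neurotrophin receptor of non-myelinating and repair Schwann cells and of lymph node dendritic cells, had 32 to 260 counts per library. Young_Ctrl libraries had 6.84, 12.5, 7.82 and 5.79 CPM, and Young_CL libraries 4.14, 4.87, 7.45 and 8.56 CPM. Old_Ctrl libraries had 4.61, 4.66 and 3.4 CPM, and Old_CL libraries 3.28, 3.51, 1.94 and 2.5 CPM. Young vehicle and CL libraries were mixed, whereas each aged library lay below each young library of its treatment. With CL the log2 change was -0.43 in young mice (SE 0.28, adjusted p = 0.22) and -0.60 in aged mice (SE 0.31, adjusted p = 0.12).

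Ncam1 was the member with too few counts for a firm reading: 8 counts in Young_Ctrl 1, 9 in Young_CL 3 and at most 157. Young_Ctrl libraries had 1.05, 2.75, 1.17 and 1.5 CPM, and Young_CL libraries 1.26, 1.71, 1.49 and 1.94 CPM. Old_Ctrl libraries had 2.59, 2.81 and 2.65 CPM, and Old_CL libraries 1.85, 1.75, 2 and 1.95 CPM. Young_Ctrl 2 stood at the level of the Old_Ctrl libraries, and Old_CL lay wholly below Old_Ctrl. The log2 change with CL was -0.03 in young mice (SE 0.27, adjusted p = 0.95) and -0.51 in aged mice (SE 0.26, adjusted p = 0.12). With age under vehicle it was 0.73 (SE 0.27, adjusted p = 0.054), which became 1.09 with an adjusted p of 0.0046 when Young_Ctrl 2 was left out. It also passed with DESeq2 (0.72, adjusted p = 0.046) and with a replicate block (0.86, 0.04).

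Among 13 tested genes of non-myelinating Schwann cells, 4 fell and none rose with CL in young mice, and 4 fell and 2 rose in aged mice. Chl1, an adhesion molecule, fell by 0.87 in young mice (SE 0.22, adjusted p = 0.0055). In aged mice Lgi4, a secreted Schwann cell factor, fell by 0.77 (SE 0.17) and Art3, an ecto-enzyme relative, rose by 1.28 (SE 0.20). Art3 had a mean of 181 CPM in Old_Ctrl and 441 in Old_CL, where Lgi4 had 17.2 and 10. Which cells carried Art3 was not tested. Gfap, Ptprz1 and Fabp7 fell below the filter. Of 14 axon and sympathetic neuron genes 7 passed it, and Th, Dbh, Npy and Slc6a2, which serve noradrenaline or mark sympathetic fibres, did not. Of the 7, 2 fell in young and 4 in aged mice with CL; Nefh, the heavy neurofilament, fell by 0.69 (SE 0.21) and 1.21 (SE 0.23), and Stmn2, a tubulin regulator of growing axons, fell by 0.82 (SE 0.19) and 0.88 (SE 0.19). The young Nefh call was lost without Young_Ctrl 3 (-0.51, adjusted p = 0.078) or Young_Ctrl 4 (-0.61, adjusted p = 0.057). How far the RNA of these 14 genes in the pad follows its nerve fibres was not tested. Neither the genes below the filter nor the falls are read as a measure of fibres.

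Markers of stromal and epithelial cells moved with CL in aged mice too. Of 11 fibroblast and progenitor markers 8 fell (median log2 change -1.32), from a summed 6310 to 15300 CPM in Old_Ctrl to 4230 to 4640 in Old_CL, whereas in young mice 1 fell and 1 rose (5050 to 7500 CPM in Young_Ctrl and 2670 to 7270 in Young_CL). Of 6 tested mammary epithelium markers 4 fell in aged mice (median -1.54; 10.7 to 22.1 CPM in Old_Ctrl, 3.03 to 8.06 in Old_CL) and 1 in young mice (7.51 to 9.07 and 4.52 to 7.65 CPM). Of 6 pericyte and smooth muscle markers 5 rose in aged mice (263 to 282 CPM in Old_Ctrl, 512 to 541 in Old_CL), and in young mice 1 rose and 1 fell (130 to 272 and 228 to 374 CPM). None of these markers was at 0 in all libraries, but 6 listed mammary epithelium markers fell below the filter, with Wap at most at 1 count. The part of these markers in the falls of the regulator, axon and non-myelinating genes was not tested.

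S100b had a narrow range under vehicle, with 5.26, 5.24, 4.44 and 4.95 CPM in Young_Ctrl and 6.77, 5.48 and 5.8 CPM in Old_Ctrl. With CL it had 36, 29.6, 18.2 and 32.7 CPM in Young_CL and 8.7, 8.96, 10.5 and 9.39 CPM in Old_CL. Every CL library lay above every vehicle library, and every Young_CL library above every Old_CL library. The rise in young mice was 2.57 on the log2 scale (95% interval 2.20 to 2.94, SE 0.18, adjusted p = 5.6e-08). In aged mice S100b rose by 0.67 (0.28 to 1.06, SE 0.18, adjusted p = 0.0083), a call lost with the B cell covariate (0.60, adjusted p = 0.066). The aged response was lower than the young one by 1.90 on the log2 scale (SE 0.25, adjusted p = 0.00097 for the age by CL interaction). Without the muscle-rich libraries, which leaves 1 Young_CL library, the changes were 2.71, 0.55 and -2.17, and all 3 passed the test, with that library taken to vary like the others.

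Markers of thermogenic adipocytes moved in the same comparisons. All 8 rose with CL at both ages. Their summed level was 64.2 to 208 CPM in Young_Ctrl, 1820 to 2690 in Young_CL, 32.7 to 42.5 in Old_Ctrl and 561 to 696 in Old_CL, so Young_CL stood highest for the markers as for S100b. Ucp1, the uncoupling protein of heat production, rose by 5.04 (SE 0.43) in young and by 4.54 (SE 0.50) in aged mice on the log2 scale, and its interaction did not pass the test (-0.50, SE 0.58, adjusted p = 0.62). Of the 8 markers 1 was called for the interaction, lower in aged mice as S100b was: Dio2, the enzyme that activates thyroid hormone (-2.41, SE 0.50, adjusted p = 0.012). Relative to Sox10 in the same library, S100b stood at 1.39 ± 0.468 (SD, n = 4) in Young_Ctrl, 11 ± 6.28 (n = 4) in Young_CL, 1.53 ± 0.139 (n = 3) in Old_Ctrl and 2.74 ± 0.248 (n = 4) in Old_CL. The S100b level thus did not keep to that of Sox10, and which cells carried it was not tested.

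**Figure D3:**
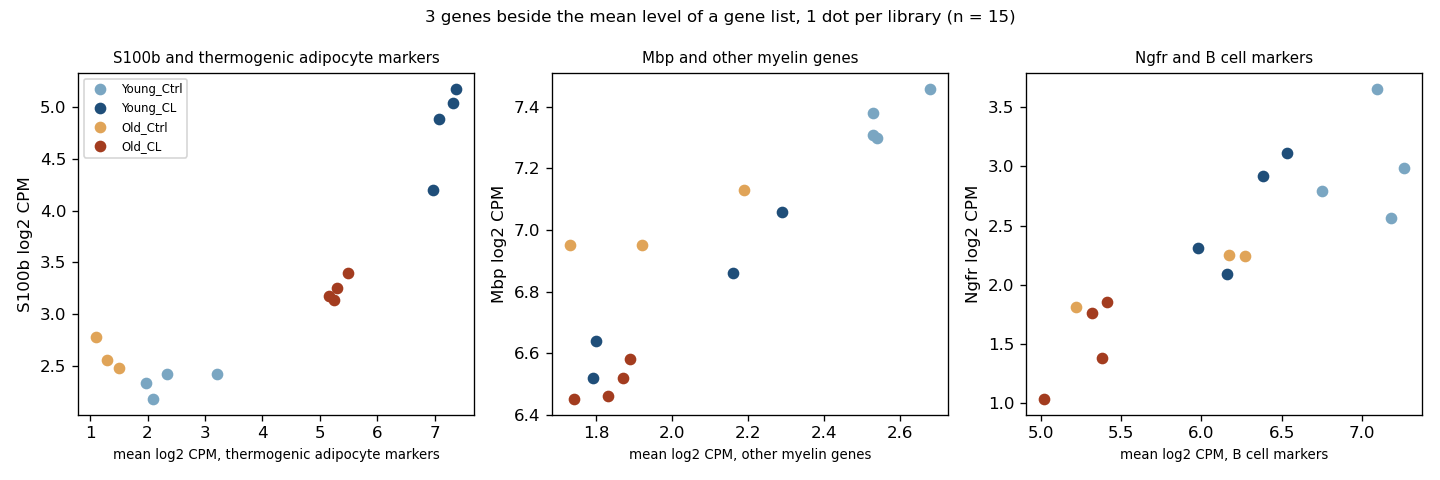
Log2 CPM of S100b, Mbp and Ngfr (vertical axes) beside the mean log2 CPM of thermogenic adipocyte markers, other myelin genes and B cell markers (horizontal axes), 1 dot per library (n = 15) in the colour of its group. For S100b the libraries lie in clusters by group, with Young_CL highest for it and for the thermogenic markers. Young_Ctrl is highest for Mbp and for the other myelin genes, while Young_CL overlaps both aged groups on both axes there. For Ngfr the young groups overlap.

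Of 15 tested genes in a list of ligands that act on axons or glia, 4 rose and 1 fell with CL in young mice. In aged mice 4 rose and 5 fell. Clstn3, a membrane protein kept in that list though not itself a secreted ligand, had the largest rise of those named here. It rose by 3.92 (SE 0.44, adjusted p = 1.3e-05) in young and by 2.28 (SE 0.44, adjusted p = 0.0011) in aged mice. A short form of it is known to promote S100b secretion from thermogenic adipocytes, and the gene counts do not separate the forms. Its interaction was -1.64 (SE 0.58, adjusted p = 0.1), which passed the test without Young_Ctrl 1 (-2.28, 0.0057) or Old_Ctrl 3 (-2.02, 0.026). Nrtn, neurturin, rose by 2.09 (SE 0.24) in young and by 1.0 (SE 0.28, adjusted p = 0.0093) in aged mice, with an interaction of -1.10 (SE 0.37, adjusted p = 0.084), and the aged call was lost without Old_Ctrl 3 (0.83, 0.065). Nrg4, an adipocyte neuregulin, rose by 0.89 (SE 0.19) and 1.39 (SE 0.21), and Bdnf, a neurotrophin of low level here, rose in aged mice by 2.15 (SE 0.41). The ligand that fell in young mice was Slit3, an axon guidance factor (log2 change -0.77, SE 0.20, adjusted p = 0.0055). Those that fell in aged mice, named in full after their values were seen, were the guidance factors Ntn1 (-1.19, SE 0.25) and Slit2 (-1.01, SE 0.29), the neuregulin Nrg2 (-0.99, SE 0.21), the cytokine Lif (-1.34, SE 0.35) and the growth factor Mdk (-0.65, SE 0.19). The Mdk call was lost without Old_Ctrl 4 (-0.54, adjusted p = 0.063), and the B cell covariate ended those of Mdk (-0.57, 0.07) and Lif (-1.19, 0.052).

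Among receptors for such ligands, Ret and Ntrk2 had CL responses that differed between the ages. Of 12 tested, 1 rose and 1 fell with CL in young mice, and 2 rose and 2 fell in aged mice. Ret, the signalling receptor for neurturin and its relatives, rose by 0.62 (SE 0.18) in young and by 2.17 (SE 0.18, adjusted p = 3.3e-06) in aged mice, and the difference of 1.55 passed the test (SE 0.25, adjusted p = 0.0034). Ntrk2, the receptor of Bdnf, fell by 1.34 (SE 0.19) in young mice, and its interaction was 1.5 (SE 0.28, adjusted p = 0.0079). In aged mice Sort1, sortilin, rose by 0.92 (SE 0.26), and Gfra2, the coreceptor of neurturin, fell by 0.90 (SE 0.20, adjusted p = 0.0019), as did Sorcs2, a sortilin relative, by 1.01 (SE 0.24, adjusted p = 0.0029). With the B cell covariate the calls of Ret (0.64, adjusted p = 0.15), Nrg4 (0.56, 0.17), Egr2 (-0.69, 0.12), Chl1 (-0.34, 0.51), Stmn2 (-0.59, 0.2) and Nefh (-0.41, 0.46) in young mice and of Nrtn (0.83, 0.078), Sort1 (0.59, 0.15), Gfra2 (-0.67, 0.056) and Sorcs2 (-0.63, 0.063) in aged mice were lost. Without the muscle-rich libraries those of Ret (0.39, 0.36), Cnp (-0.69, 0.062), Egr2 (-0.69, 0.084), Chl1 (-0.95, 0.15), Stmn2 (-0.81, 0.15) and Nefh (-1.01, 0.11) in young mice, of Nrtn (0.84, 0.1) and Sort1 (0.89, 0.073) in aged mice and of the Ret (1.66, 0.055) interaction were. With Old_CL 1, 2 and 4 summed, those of Egr2 (-0.55, 0.072) and Sort1 (0.88, 0.055) in aged mice and of the Nrg2 (-1.43, 0.084) and Ntrk2 (1.47, 0.059) interactions were lost.

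In all, 4 of the 7 members were called with CL in young mice, 2 higher and 2 lower, where 43.9% of all tested genes were called (21.7% higher and 22.1% lower). In aged mice 2 of 7 were called, 1 in each direction, where 45.2% of all genes were (23.1% higher and 22.2% lower). Groups did not overlap for 3 members in young mice (34.1% of all genes) and for 4 in aged mice (52.8%). Changes were that common across the table, so these counts are not read as a result about the 7 genes. The counts called with CL in the nerve gene lists were not tested against these shares. For the age by CL interaction 1 of 7 was called, beside 7.08% of all genes (3.31% higher and 3.77% lower), and the intervals of the other 6 members all held 0. Without the muscle-rich libraries 3 members were called with CL in young mice and 2 in aged mice.

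Age was compared within each treatment. The 4 pairwise comparisons share their groups (Young_Ctrl enters both young CL and age under vehicle, for example), so their values stand side by side here and are not independent. Under vehicle 4 of 7 members were lower in aged mice and none higher, where 27.2% of all genes were called, 12.2% lower and 15.1% higher. With the 2 vehicle groups fitted by themselves no member was called (Ngfr -0.98, adjusted p = 0.055; Prx -0.53, 0.069; Pmp22 -0.52, 0.075; Mbp -0.36, 0.076), without the muscle-rich libraries 3 were, and with Old_CL 1, 2 and 4 summed 2 were. Under CL 4 of 7 were again lower and none higher, where 40.0% of all genes were called, 19.4% lower and 20.5% higher. Without the muscle-rich libraries 2 of these were called, S100b and Ngfr. Groups did not overlap for 5 members under vehicle (27.1% of all genes) and for 3 under CL (44.9%). The shares called also stand beside the counts of the nerve gene lists with age, which were not tested against them.

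Pmp22 was lower with age by 0.51 on the log2 scale under vehicle (log2 change -0.51, SE 0.14, adjusted p = 0.015) and had a log2 change of -0.70 under CL (SE 0.13, adjusted p = 0.00062). The call under vehicle was lost without Old_Ctrl 3 (-0.41, adjusted p = 0.062), and without the muscle-rich libraries both were (-0.45, adjusted p = 0.064, and -0.59, adjusted p = 0.082). Mbp had log2 changes of -0.35 (SE 0.11, adjusted p = 0.032) and -0.28 (SE 0.10, adjusted p = 0.044). Neither held well. Without the muscle-rich libraries the change under CL was -0.03 (adjusted p = 0.91), and its call was also lost with the muscle score (-0.24, 0.085), the B cell covariate (-0.24, 0.37), no filter (-0.27, 0.067) and Old_CL summed (-0.30, 0.14). Under vehicle leaving out Young_Ctrl 2, 3 or 4 or Old_Ctrl 1 or 4 ended the call (adjusted p = 0.065, 0.055, 0.066, 0.089 and 0.12), and under CL leaving out Young_CL 2 or 3 or any Old_CL library did (adjusted p = 0.1, 0.12, 0.058, 0.099, 0.095 and 0.077). Prx had -0.52 under vehicle (SE 0.16, adjusted p = 0.03), lost without Young_Ctrl 2 (-0.39, 0.08), Old_Ctrl 1 (-0.44, 0.095) or Old_Ctrl 4 (-0.47, 0.12), and -0.23 under CL (SE 0.15, adjusted p = 0.25).

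Ngfr was lower in aged mice by a log2 change of -0.97 under vehicle (SE 0.30, adjusted p = 0.028) and -1.14 under CL (SE 0.29, adjusted p = 0.0056). Under vehicle the call was lost without Young_Ctrl 2 (-0.70, 0.083), Young_Ctrl 3 (-1.0, 0.054) or Old_Ctrl 4 (-0.83, 0.13), and with the muscle score as a covariate (-0.88, 0.054). All 12 B cell markers were lower with age under both treatments; their summed level was 1580 to 2200 CPM in Young_Ctrl, 909 to 1330 in Young_CL, 532 to 1110 in Old_Ctrl and 481 to 634 in Old_CL, and none was at 0. Cr2, a receptor that B cells and follicular dendritic cells carry, had log2 changes of -1.31 and -1.19 in the same comparisons. Of 4 tested lymph node stroma markers, none was called with age under vehicle (median log2 change -0.15). Under CL 2 of them were lower in aged mice and none higher (median -0.51). The summed level of the stroma markers was 105 to 120 CPM in Young_Ctrl and 110 to 117 in Old_Ctrl. Which cells carried Ngfr was not tested. With the mean level of the B cell markers as a covariate, Ngfr had a log2 change with age of -0.07 under vehicle (adjusted p = 0.98) and -0.40 under CL (adjusted p = 0.56). The covariate differs between the groups itself, so the part of B cells and the part of age in Ngfr cannot be told apart.

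S100b did not pass the test with age under vehicle (log2 change 0.26, SE 0.19, adjusted p = 0.32), though the groups did not overlap. Under CL it was 3.13-fold lower in aged mice (log2 change -1.64, SE 0.16, adjusted p = 4.2e-06). All 8 thermogenic adipocyte markers were lower there too, with Ucp1 at -2.58 (SE 0.38). The log2 change of Ncam1 with age under CL was 0.25 (SE 0.26, adjusted p = 0.46).

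**Figure D4:**
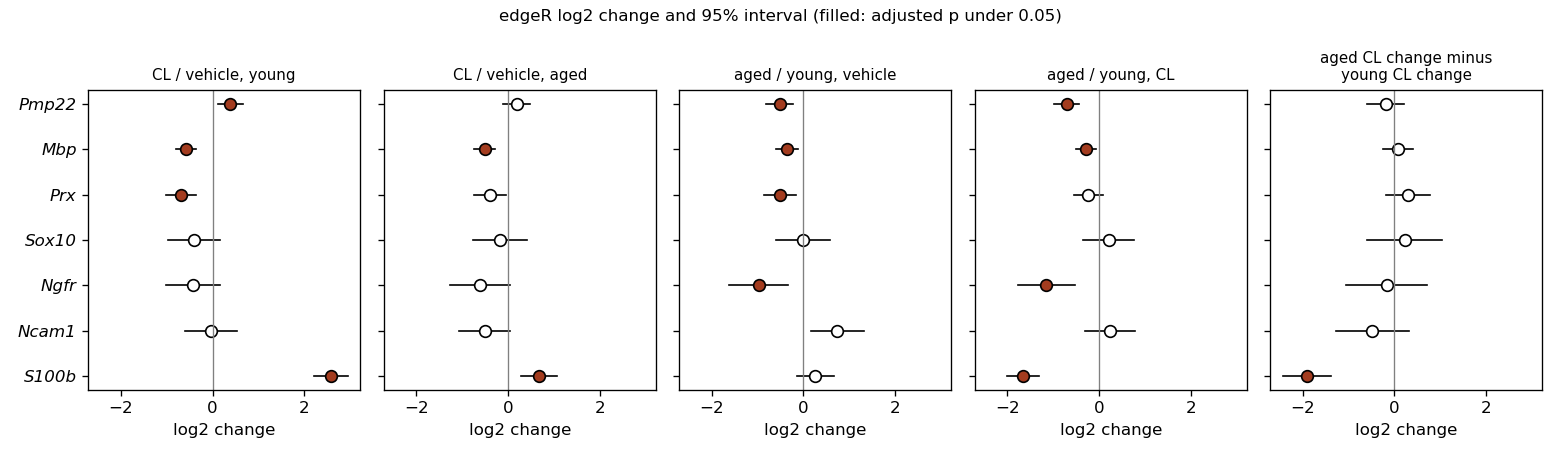
Log2 change of each member with its 95% interval from edgeR (horizontal axes) in the 4 pairwise comparisons and in the age by CL interaction; filled dots have an adjusted p under 0.05. S100b lies at 2.57 with CL in young mice and at 0.67 in aged mice, and it is the filled dot of the interaction.

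With age under vehicle 7 of the 17 other myelin genes were lower and none higher (median log2 change -0.41, beside 0.03 over all tested genes), and under CL 2 were lower and none higher. Ugt8a and Mal had -1.60 (SE 0.29) and -0.85 (SE 0.17) under vehicle, and Cnp had -0.59 (SE 0.12) under CL. Of the genes of non-myelinating Schwann cells 2 of 13 were higher under vehicle and 5 under CL, and none was lower. Kcna1, a potassium channel, was higher by 0.81 (SE 0.22, adjusted p = 0.017) under vehicle and by 1.31 (SE 0.22) under CL, and Art3 was higher by 1.39 (SE 0.19) under CL. The vehicle call of Kcna1 was lost without Young_Ctrl 3 (0.72, adjusted p = 0.057), Young_Ctrl 4 (0.72, 0.053), Old_Ctrl 3 (0.70, 0.059) or Old_Ctrl 4 (0.80, 0.06). With the B cell covariate 25 genes in all passed the test with age under vehicle, and none of the members and nerve genes named here for that comparison was among them. Under CL it ended the call of Cnp (-0.18, 0.42), as did leaving out the muscle-rich libraries (-0.50, 0.18), which also ended that of Kcna1 (1.04, 0.06).

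Among the genes of the ligand list 5 of 15 were higher with age under vehicle and none lower, and under CL 2 were higher and 1 lower. Nrg2, a neuregulin, was higher by 1.92 (SE 0.23) under vehicle, and its CL response was lower in aged mice (interaction -1.38, SE 0.32, adjusted p = 0.02, or -1.31 and 0.052 without Young_CL 2, and -0.81 and 0.59 without the muscle-rich libraries). Slit3, an axon guidance factor that also acts on fat innervation, was higher by 1.29 (SE 0.21) under vehicle and by 1.69 (SE 0.20) under CL. Clstn3 was higher by 1.47 (SE 0.44, adjusted p = 0.027) under vehicle, a call that was lost without Young_Ctrl 2 (1.37, 0.058), Young_Ctrl 3 (1.28, 0.087), Young_Ctrl 4 (1.22, 0.084), Old_Ctrl 1 (1.44, 0.057) or Old_Ctrl 4 (1.01, 0.16). Under CL, Bdnf was higher by 1.74 (SE 0.37) in aged mice, a call lost without the muscle-rich libraries (2.21, adjusted p = 0.074) and with the B cell covariate (0.68, 0.46), and Nrtn had a log2 change of -1.75 (SE 0.23).

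Of the 12 receptors 1 was higher and 1 lower with age under vehicle, and 6 were higher and 3 lower under CL; these counts were not tested against each other. Ret was higher by 1.0 (SE 0.19) under vehicle and by 2.56 (SE 0.17, adjusted p = 1.5e-07) under CL. Ntrk2 was higher by 1.81 (SE 0.20) under CL. Ntrk3, the receptor of neurotrophin 3, had log2 changes of -1.46 (SE 0.30) and -2.03 (SE 0.28). Of the 7 axon genes 1 was higher and none lower with age under vehicle, and 1 was higher and 2 lower under CL. Syp, a synaptic vesicle protein, was the one higher, by 1.80 (SE 0.21) under vehicle and by 1.81 (SE 0.19) under CL. Its mean was 11.1 CPM in Young_Ctrl, 14.3 in Young_CL, 38 in Old_Ctrl and 50.1 in Old_CL. The highest group mean of the other genes in that list was 11.2 CPM (Stmn2 in Old_Ctrl), and Snap25 reached 0.301 CPM at most. Which cells carried Syp was not tested. Nefh (-0.72, SE 0.22, adjusted p = 0.017) and Gap43, a growth cone protein (-1.19, SE 0.42, adjusted p = 0.032), were lower under CL. The Nefh call was lost without Old_CL 3 (-0.62, 0.059), without the muscle-rich libraries (-0.36, 0.62), with the B cell covariate (-0.42, 0.43) and with Old_CL summed (-0.79, 0.054). That of Gap43 was lost on leaving out any library of the groups but Young_CL 4 (-1.27 to -1.01, adjusted p = 0.05 to 0.1), and without the muscle-rich libraries its sign changed (1.54, 0.088).

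To order the genes by level, CPM were divided by the length of their joined exons (GENCODE M21). In Young_Ctrl the order was Pmp22 (113 ± 22.5 CPM per kb, SD, n = 4), Mbp (20.3 ± 1.07), Prx (6.14 ± 1.09), S100b (3.35 ± 0.258), Ngfr (2.39 ± 0.866), Sox10 (1.40 ± 0.482) and Ncam1 (0.229 ± 0.11). S100b and Ngfr, and Ngfr and Sox10, lie within about their spread of each other. In Young_CL, S100b was at 19.6 ± 5.22 CPM per kb and Mbp at 13.6 ± 2.28, in Old_CL at 6.32 ± 0.523 and 11.1 ± 0.47. Joined exons include those of rare transcripts, such as the golli exons of Mbp, so the value per kb understates a gene whose short forms dominate.

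The members were not alike in their pattern over the 15 libraries. Taking genes with a mean log2 CPM of at least 3 and Pearson's r of log2 CPM as a description, the genes closest to S100b were Timm10 (r = 0.977), Mrpl34 (0.976) and Mrps16 (0.973), which encode mitochondrial import or ribosome proteins. Closest to Mbp were Cdkn2aipnl (0.964), Hdac7 (0.956) and Prx (0.952), and closest to Prx were Mbp, Axin2 (0.943) and Mal (0.913). Dhcr7 (0.94), Ppp1r3b (0.935) and Sphk2 (0.928) were closest to Pmp22. For Ngfr they were Nol9 (0.934), Pou2f2 (0.926) and Egr3 (0.92). Sox10 had no partner above 0.821 (Llgl1, then Ctns at 0.769 and Adck5 at 0.766), and Ncam1 none above 0.796 (Fxyd6, then Pdgfrb at 0.794). Group differences and a shared scaling enter these r, which do not separate differences between groups from likeness within them.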

How the data were processed

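PolyA RNA was extracted with Trizol and a PureLink kit and made into TruSeq libraries, per the labels' protocols. Per the submitters' processing notes, the authors used STAR, featureCounts of Subread and the mm9 build, with no versions given. The deposited values are whole-number gene counts for 24015 genes in 15 libraries. No coordinates of mm9 are printed; promoters are those of RefSeq in GRCm38.p6, and exon lengths those of GENCODE M21.

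Genes were kept with filterByExpr by group (15288 genes, 63.7%) and compared by quasi-likelihood F tests (edgeR 4.0.16, R 4.3.3; TMM, robust, 1 mean per group, all 15 libraries), with Benjamini-Hochberg adjustment over all tested genes and a threshold of 0.05. Each SE was taken as |log2 change| divided by √F. Log2 CPM used a prior count of 2. A count of 3 equals 0.0538 to 0.497 CPM, for counting error only. On simulated data the procedure recovered 84%, 74%, 64%, 70% and 44% of 2-fold changes and 88%, 94%, 89%, 94% and 84% of 4-fold changes for CL in young mice, CL in aged mice, age with vehicle, age with CL and their interaction. Each of these rates rests on 100 changed genes among 15288. They need not hold for the data, where a far larger share of genes was called.

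Alternatives were RLE and upper-quartile factors, DESeq2 1.42.0, no filter, a fit of the 2 groups by themselves, a replicate block, each library left out in turn, the 5 muscle-rich libraries left out, the muscle or B cell score as a covariate, and Old_CL 1, 2 and 4 summed. The B cell score differs between the groups, so a call kept or lost with it does not separate B cells from CL or age. The members, lists and alternatives were chosen with earlier results of these data known. The text names all members in every comparison, up to 6 genes per nerve list and comparison with called genes first by p (beyond it, the ligands that fell with CL), the 3 genes most like each member, and up to 3 markers per cell type list; some genes the rule allows are not reported here.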

Additional observations from a re-analysis of the deposited data

Results flagged for a closer look

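The CL response of S100b differed between the ages: the aged log2 change was lower than the young one (interaction -1.90, edgeR adjusted p = 0.00097), and all 4 Young_CL libraries lay above all 4 Old_CL libraries.

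Prx in Young_Ctrl 2, at 43.3 CPM, stood apart from the other 3 libraries of its group, its gap to the nearest of them being 0.869 of the group's range (above Dixon's critical value). It was the only one of 21 groups of 4 libraries tested to do so, and chance flags about 1 in 20. The same library was also the highest of its group for Mbp, Sox10, Ngfr and Ncam1.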

How the results depend on the processing

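Over 658 refits of the members, 579 kept direction and side of the threshold, 51 lost a call, 11 gained one and 17 changed sign, none of the last for a called value; of 1140 refits of the other named genes, 1059 kept both, 78 lost a call, 2 gained one and 1 changed sign (Gap43 with age under CL, 1.54 without the muscle-rich libraries). The cause was not tested unless the setting itself uses fewer libraries. S100b kept its calls for young CL, age under CL and the interaction in every setting run. In aged CL its call was lost with the B cell covariate (0.60, adjusted p = 0.066). The number of members called moved from 4 to 2 with that covariate for young CL, from 2 to 1 for CL in aged mice, from 4 to 0 for age under vehicle and from 4 to 2 for age under CL. With the 2 groups fitted alone it was 5 for CL in aged mice and 0 for age under vehicle, without the muscle-rich libraries 2 for age under CL, and with Old_CL 1, 2 and 4 summed 2 for age under vehicle. Leaving out 1 library gave 1 to 4 members for age under vehicle (1 without Old_Ctrl 4). Signs changed for Ngfr with young CL (0.05 without the muscle-rich libraries, 0.16 with the B cell covariate), Ncam1 with young CL (0.00 with the replicate block, 0.25 without the muscle-rich libraries, 0.05 with the B cell covariate, -0.17 to 0.33 leaving out 1 library, 0.33 without Young_Ctrl 2 and 0.10 without Young_CL 1), and Sox10 with aged CL (0.02, B cell covariate). They also changed for Sox10 with age under vehicle (0.08 with the replicate block, 0.37 with the B cell covariate, -0.14 to 0.19 leaving out 1 library, 0.19 without Young_Ctrl 2, 0.07 without Young_Ctrl 4 or Old_Ctrl 4). Without the muscle-rich libraries age under CL gave -0.10 for Ncam1 and 0.15 for Prx, and without Young_CL 4 the interaction was -0.01 for Mbp (up to 0.18 leaving out another library) and 0.04 for Ngfr (down to -0.44).

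Counts over all genes moved by over 1.5 times in these cases. Young CL went from 6706 genes to 2974 without the muscle-rich libraries and 1752 with the B cell covariate. Age under vehicle went from 4162 to 1877 with the groups fitted alone, 25 with the B cell covariate and 1738 (without Old_Ctrl 4), 2450 (Young_Ctrl 3) or 2606 (Young_Ctrl 4). Age under CL went from 6108 to 1869, 2160 and 3817 without the muscle-rich libraries, with the B cell covariate and with Old_CL summed. The interaction went from 1083 to 1871 with DESeq2, 641 with the replicate block, 203 without the muscle-rich libraries, 700 with the muscle score, 139 with Old_CL summed, and 431 (without Old_Ctrl 4) to 2070 (without Young_CL 4). Same-numbered libraries did not deviate together (21 pairs, r from -0.347 to 0.343, 6 over 0.1; 4 of 15 libraries lay closest to their own number), so the numbers were not taken to pair them. With the replicate block Mbp (-0.34, adjusted p = 0.058) and Ngfr (-0.86, 0.075) lost and Ncam1 (0.86, 0.04) gained a call for age under vehicle, and Mbp lost it for age under CL (-0.27, 0.069). Scaling by RLE or upper quartile moved the median of all genes by at most 0.09. Depth limits Ncam1 and Sox10 most.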
